A study of Homo sapiens with 6 samples.

Results

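CPT1A, ACSL1, ACSL5 and CREB3L3 are the members of a small group of fatty acid activation and oxidation genes, taken from Caco-2 cells that received hairpins against FAM46A. They were found by gene symbol, which gave 1 probe set for each, so 4 of the 14884 named genes measured are described here. The genes were chosen by their measured difference between hairpin and scramble arrays, so that difference is given as a description and carries no test. The difference between the hairpins is a separate contrast and was tested. It uses the same hairpin arrays, and the genes were chosen with earlier results of these data known.

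Caco-2 is an established line from a human colon carcinoma whose confluent cultures take on features of absorptive enterocytes. Cells were infected with lentivirus while subconfluent and sampled 17 days later, and total RNA was read on 6 single-channel Affymetrix arrays. The 3 groups held 2 arrays each, labelled as biological replicates: scramble shRNA, FAM46A-shRNA#2 and FAM46A-shRNA#4. All groups carried a lentiviral hairpin, so uninfected cells are not part of the comparison, and the level of FAM46A (TENT5A) was not analysed here. The labels do not say how the replicates were separated, so a p-value reflects no more than the spread of these arrays, which may be technical.

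Long-chain fatty acids enter metabolism only after an acyl-CoA synthetase has joined them to coenzyme A. ACSL1 and ACSL5 are such synthetases, and ACSL5 is known for its high level in the small intestine. CPT1A then transfers the acyl group to carnitine at the outer mitochondrial membrane, the controlled entry step of mitochondrial oxidation, which malonyl-CoA inhibits. CREB3L3 is a transcription factor held in the ER membrane of hepatocytes and enterocytes. Once cleaved, its released part acts with PPARA on genes of fatty acid oxidation and triglyceride handling.

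On the GRCh38.p14 assembly RefSeq places CPT1A at chr11:68754620-68844277, ACSL1 at chr4:184755595-184826594, ACSL5 at chr10:112374116-112428376 and CREB3L3 at chr19:4153631-4173054. The RefSeq table lists 250 bases before a transcript start in 9 windows for these genes, 1 each for CPT1A and CREB3L3, 2 for ACSL5 and 5 for ACSL1. CPT1A and CREB3L3 are shown whole, because both genes were lower with the hairpins and their windows lie outside the annotated gene. Short stretches of ACSL5 and ACSL1, cut around motif matches, are set beside them, because ACSL5 followed CREB3L3 and ACSL1 went the other way. Capitals mark matches, on either strand, to 7 motifs: AGGTCA, the core hexamer of many nuclear receptors, TGACG and CCACG, cores of bZIP factor sites, the HNF4 motif CAAAGTCCA, the GC box GGGCGG, the CCAAT box and TATAAA. The windows run 5′ to 3′ on the gene's strand.
CPT1A, chr11:68844278-68844527, minus strand: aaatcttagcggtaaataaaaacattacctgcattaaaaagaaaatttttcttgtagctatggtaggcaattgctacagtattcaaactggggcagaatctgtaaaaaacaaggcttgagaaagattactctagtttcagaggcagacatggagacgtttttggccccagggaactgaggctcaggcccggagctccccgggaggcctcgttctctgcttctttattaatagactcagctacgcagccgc
CREB3L3, chr19:4153381-4153630, plus strand: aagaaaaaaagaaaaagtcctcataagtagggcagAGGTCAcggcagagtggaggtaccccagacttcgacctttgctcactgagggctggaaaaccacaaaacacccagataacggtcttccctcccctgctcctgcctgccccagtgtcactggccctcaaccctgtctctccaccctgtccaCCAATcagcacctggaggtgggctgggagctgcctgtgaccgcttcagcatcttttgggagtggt
ACSL5, chr10:112375033-112375062, plus strand: ttttactggaggAGGTCAataaaaaaaaaa
ACSL1, chr4:184826100-184826125, minus strand: gcctgcGGGCGGGGCGGggccgcggg

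The CREB3L3 window held AGGTCA beginning 215 bases before the start and CCAAT beginning 65 bases before it. The ACSL5 window nearest the gene's 5′ end held AGGTCA beginning 223 bases before its start. AGGTCA was present on either strand in 12.1% of all 35116 promoter windows of this length and CCAAT in 32.0%. The CPT1A window held none of the 7 motifs and was 44.4% GC, against a median of 58% over all windows. The ACSL1 window nearest the gene's 5′ end was 83.6% GC, above 99.1% of all windows, and held GGGCGG at 6 positions. The pair printed in capitals for ACSL1 overlaps by a single base, and 42.6% of all windows held GGGCGG. The other ACSL5 window held none of the 7 motifs. The other ACSL1 windows held no AGGTCA, and GGGCGG at no more than 1 position each. CCACG was also present in the ACSL1 window nearest the gene's 5′ end, beginning 220 bases before its start. Among the other ACSL1 windows 1 held CCACG and CCAAT, and a different window held TGACG. Over all windows CCACG was present in 33.5% and TGACG in 21.2%. These matches describe the letters of a window and were not tested as binding sites.

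Each deposited value is centred on its probe set's median across arrays and was read as log2, although no label names the logarithm's base. A value therefore compares arrays for 1 gene, and the levels of different genes cannot be ranked. CPT1A stood at 0.69 and 0.87 on the scramble arrays, at -0.86 and -0.54 with shRNA#2, and at -0.21 and 0.21 with shRNA#4. The order was scramble, shRNA#4, shRNA#2 from high to low, with no overlap between the groups. CREB3L3 stood at 1.43 and 1.23 with scramble, at -0.25 and 0.045 with shRNA#2, and at -0.19 and -0.045 with shRNA#4. Both scramble arrays lay far above the hairpin arrays, and the hairpin groups overlapped.

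ACSL5 showed the same arrangement as CREB3L3. Its values were 1.04 and 1.06 with scramble, -0.25 and 0.040 with shRNA#2, and -0.088 and -0.040 with shRNA#4. ACSL1 ran the other way, at -0.81 and -0.72 with scramble, 0.052 and -0.052 with shRNA#2, and 0.94 and 0.62 with shRNA#4. Its order from low to high was scramble, shRNA#2, shRNA#4, again with no overlap. For each of the 4 genes all hairpin arrays lay beyond the scramble arrays in 1 direction, and the same held for 36.2% of all genes. Between the hairpins the groups did not overlap for CPT1A and ACSL1 and overlapped for the other two, where 54.5% of all genes had no overlap.

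**Figure D1:**
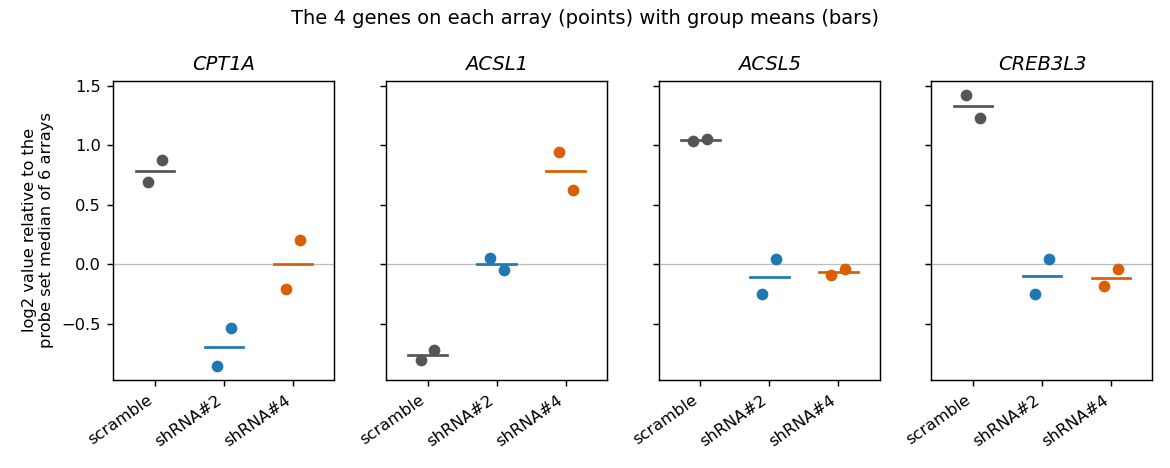
Deposited log2 value relative to the probe set's median (y axis) for CPT1A, ACSL1, ACSL5 and CREB3L3 on each of the 6 arrays (points), with group means as bars, for scramble, shRNA#2 and shRNA#4 (x axis). CPT1A, ACSL5 and CREB3L3 are highest with scramble, ACSL1 is lowest there, and the hairpin groups lie apart only for CPT1A and ACSL1.

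As a mean of both hairpins against scramble, CREB3L3 was lower by a log2 difference of -1.43 ± 0.10 (fitted value and SE, n = 2 arrays per group), or 2.70-fold. Its difference was the 39th most negative among the 14884 genes. ACSL5 (-1.13 ± 0.084) and CPT1A (-1.13 ± 0.14) followed at ranks 93 and 94, each 2.19-fold lower. ACSL1 was higher by 1.15 ± 0.094, or 2.23-fold, the 43rd most positive. The error of CPT1A was the widest of the 4, and 98.9% of all genes had a smaller spread between replicates than CPT1A. The median absolute difference over all genes in this comparison was 0.091, and 25.4% of them were called (limma, Benjamini-Hochberg adjusted p under 0.05), 14.8% as higher and 10.6% as lower.

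Each hairpin compared with scramble gave a difference of the same sign for each gene, and both comparisons share the scramble arrays. CREB3L3 differed from scramble by -1.43 ± 0.12 with shRNA#2 and by -1.44 ± 0.12 with shRNA#4. ACSL5 differed by -1.15 ± 0.097 and -1.11 ± 0.097. CPT1A differed by -1.48 ± 0.16 with shRNA#2, 2.79-fold lower, and by -0.78 ± 0.16 with shRNA#4, 1.72-fold lower. ACSL1 was higher by 0.76 ± 0.11 with shRNA#2, 1.70-fold, and by 1.55 ± 0.11 with shRNA#4, 2.92-fold.

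**Figure D2:**
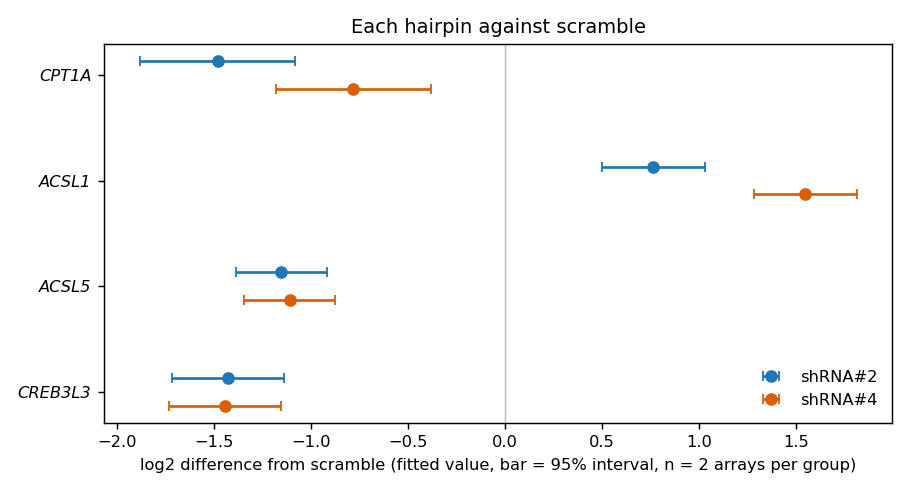
Fitted log2 difference from scramble (x axis) for CPT1A, ACSL1, ACSL5 and CREB3L3 (y axis) with shRNA#2 and shRNA#4 (colours); bars are 95% intervals of the limma fit with 2 arrays per group. The hairpins lie together for ACSL5 and CREB3L3, while CPT1A is lower with shRNA#2 and ACSL1 is higher with shRNA#4.

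The hairpins were then compared directly. ACSL1 was lower with shRNA#2 than with shRNA#4, by a log2 difference of -0.78 ± 0.11 (95% interval -1.05 to -0.52), with a limma adjusted p of 0.00789. CPT1A was also lower with shRNA#2, by -0.70 ± 0.16 (95% interval -1.10 to -0.30), with a limma adjusted p of 0.0382. So 2 of the 4 genes were called, beside a background of 15.3% over all genes. ACSL5 gave a difference of -0.043 ± 0.097 (95% interval -0.28 to 0.19, limma adjusted p 0.865). CREB3L3 gave 0.015 ± 0.12 (95% interval -0.27 to 0.30, limma adjusted p 0.968). These intervals leave room for a difference of up to about 0.30 in either direction, so they do not show that the hairpins acted alike on ACSL5 and CREB3L3.

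The call of CPT1A between the hairpins was not stable. It ended without any 1 of 5 arrays, where the limma adjusted p rose to as much as 0.173 without replicate 1 of shRNA#2 (log2 difference -0.54). It was 0.0551 without either scramble array, 0.0614 without replicate 2 of shRNA#2, and 0.135 without replicate 2 of shRNA#4. The call of ACSL1 held whichever array was left out, with a highest limma adjusted p of 0.0488.

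The 4 genes were also set against each other and against all protein-coding genes by the root mean square difference of their 6 array values. ACSL5 and CREB3L3 lay closest among the 4, at 0.18, with CPT1A at 0.39 from ACSL5 and at 0.49 from CREB3L3. ACSL1 lay 1.11 or more from each of the others. The 5 genes nearest to CPT1A were DHRS11, EFR3B, CES1, GDPD2 and ERICH4, at 0.11 to 0.16, and CES1 encodes a carboxylesterase that hydrolyses lipid esters. Nearest to ACSL1 were ZNF850, SETD7, IFRD1, VLDLR and RPF2, at 0.13 to 0.17, and VLDLR is a receptor for triglyceride-rich lipoproteins. Nearest to ACSL5 were HRG, ANO9, SLC49A4, CTSA and HSD17B14, at 0.084 to 0.099. Nearest to CREB3L3 were MOGAT3, an acyltransferase of triglyceride synthesis, TMEM45B, PBLD, FXYD3 and TST, at 0.099 to 0.13. The measure compares 6 points that fall into the same 3 groups for every gene.

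Paralogs of the 4 genes did not follow them as families. Of 5 ACSL genes, 4 were measured. ACSL4, the synthetase that prefers arachidonic acid, stood at -0.055 and 0.055 with scramble, at -0.36 and -0.45 with shRNA#2 and at 0.72 and 0.47 with shRNA#4. It thus lay below scramble with shRNA#2 (-0.41, limma adjusted p 0.0284) and above it with shRNA#4 (0.60, limma adjusted p 0.00603), in comparisons that called 21.6% and 26.1% of all genes. The hairpins differed by -1.01 in ACSL4 (limma adjusted p 0.00294), the same sign as in ACSL1. ACSL6 stayed between -0.052 and 0.057 on all arrays, with a mean difference of 0.00065 ± 0.049 from scramble.

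Of the carnitine palmitoyltransferases, CPT2, which returns the acyl group to coenzyme A inside mitochondria, fell by 0.40 ± 0.053 for the mean of both hairpins (limma adjusted p 0.00317). CPT1C, a brain form of CPT1, gave -0.023 ± 0.082 (limma adjusted p 0.901). In the CREB3 family, CREB3L2 rose by 0.45 ± 0.065 (limma adjusted p 0.00429), the opposite direction to CREB3L3. CREB3L1 fell by 0.45 ± 0.10 (limma adjusted p 0.0236), a call that ended without any 1 of 4 arrays, with an adjusted p of up to 0.0663 without replicate 1 of shRNA#2. CREB3 (0.26 ± 0.10) and CREB3L4 (-0.040 ± 0.082) were not called, with limma adjusted p-values of 0.123 and 0.813. CREB3 was lower with shRNA#2 than with shRNA#4 by 0.47 and CREB3L1 was higher by 0.51 (limma adjusted p 0.0461 and 0.0379), and these calls ended without any 1 of 5 and of 4 arrays, reaching 0.206 and 0.153.

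**Figure D3:**
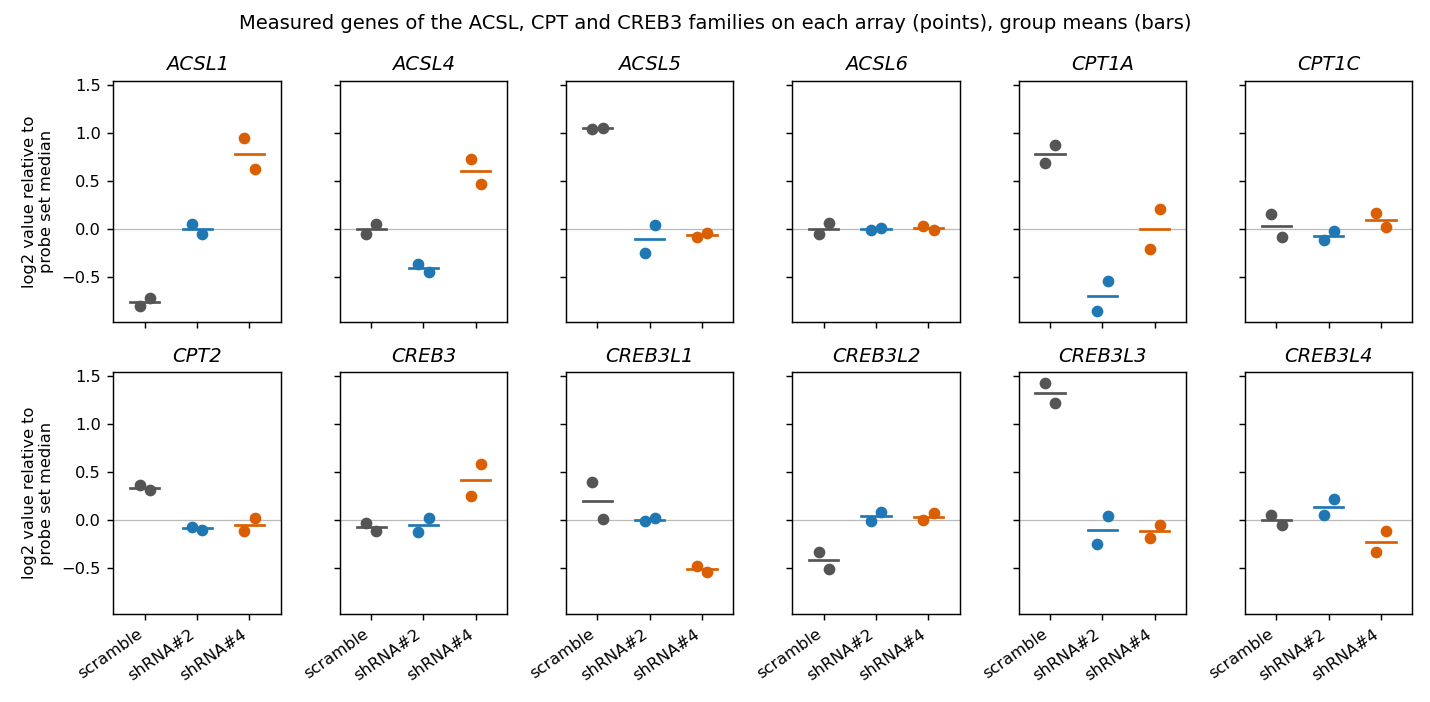
Deposited log2 value relative to the probe set's median (y axis) on each array (points) with group means (bars) for the 12 measured genes of the ACSL, CPT and CREB3 families, for scramble, shRNA#2 and shRNA#4 (x axis). CREB3L2 lies opposite to CREB3L3, ACSL4 splits by hairpin on either side of scramble, and ACSL6 is flat.

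The genes around these steps were counted in lists without the 4 genes themselves, comparing the mean of both hairpins with scramble. Of 200 measured list genes, 97 were called, 22 higher and 75 lower, or 48.5%, against 25.4% of all genes, and their median difference was -0.11, against 0.0028 over all genes. The lists were drawn up with earlier results of these data known, and marker lists of cell types count among them. Many listed genes were not measured, so a count describes only the measured part of a list. The carnitine shuttle list held 12 genes and the PPAR targets 29, any of the 4 genes included. Fatty acid uptake and binding held 20 and ketone body metabolism 11. In the carnitine shuttle list 3 of 4 measured members fell and 0 rose, with a median of -0.66. CRAT, which moves acetyl groups to carnitine, stood at 1.12 and 0.84 with scramble, at -0.051 and 0.051 with shRNA#2 and at -0.31 and -0.23 with shRNA#4. CRAT fell by 1.12 ± 0.088 (limma adjusted p 0.000645), and all hairpin arrays lay below scramble. CROT, the carnitine octanoyltransferase of peroxisomes, fell by 0.92 ± 0.093 (limma adjusted p 0.00134), and CPT2 was the third.

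Among 30 measured acyl-CoA synthetases and thioesterases 6 fell and 2 rose, 26.7% of the list, close to the 25.4% of all genes. ACSS1, the mitochondrial acetyl-CoA synthetase, and ACSF2, a medium-chain synthetase, both fell by 0.97, with SEs of 0.096 and 0.082 (limma adjusted p 0.00126 and 0.000806). The thioesterase genes THEM4 (-0.36 ± 0.074, limma adjusted p 0.0152) and ACOT1 were also lower. ACSM3, another medium-chain synthetase, rose by 1.005 ± 0.11 (limma adjusted p 0.00172). The other rise was BAAT, which conjugates bile acids, at 0.67 ± 0.15 (limma adjusted p 0.0231). It stood at -0.25 with shRNA#2 and at 1.60 with shRNA#4 relative to scramble, so the mean describes neither hairpin. The shRNA#2 difference of BAAT was not called (limma adjusted p 0.412). Without replicate 2 of scramble the list had 2 falls and 1 rise, and the calls of BAAT and THEM4 ended (limma adjusted p 0.126 and 0.0686).

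The mitochondrial beta-oxidation list held 28 genes, of which 11 were measured. Of these 11, 3 rose and 2 fell, or 45.5%, against 25.4% of all genes, with a median of 0.026. With shRNA#2 alone 3 rose and 2 fell (45.5%, against 21.6% of all genes). With shRNA#4 alone 1 rose and 3 fell (36.4%, against 26.1% of all genes). ETFDH, which passes electrons from acyl-CoA dehydrogenases to ubiquinone, fell by 0.77 ± 0.042 (limma adjusted p 0.000264), and HADH, a dehydrogenase of the spiral, by 0.54 ± 0.074 (limma adjusted p 0.00369). ETFDH fell by 1.10 with shRNA#4 and by 0.44 with shRNA#2, a difference between hairpins of 0.66 (limma adjusted p 0.00215). HSD17B10, a dehydrogenase of branched acyl-CoA, rose by 0.74 ± 0.096 (limma adjusted p 0.00302). The smaller rises were those of HIBCH (0.25 ± 0.052) and the isomerase ECI2 (0.14 ± 0.039), with limma adjusted p-values of 0.0173 and 0.0457. HIBCH gave 0.39 with shRNA#2 and 0.097 with shRNA#4, and ECI2 gave 0.25 and 0.029. With shRNA#4 neither was called (limma adjusted p 0.329 and 0.746). The HIBCH call ended without any 1 of 2 arrays, reaching 0.108 without replicate 1 of scramble, and the ECI2 call without any 1 of the 6, reaching 0.167 without replicate 2 of scramble. Without replicate 1 or replicate 2 of scramble the list held 1 rise and 2 falls. In the peroxisomal list 8 of 17 measured members fell and 0 rose, 47.1% of the list, with a median of -0.15. PEX11A, a peroxisome division factor, fell by 0.80 ± 0.067 (limma adjusted p 0.000772), the enoyl-CoA reductase PECR by 0.64 and the import factors PEX6 and PEX19 by 0.60 and 0.56. Ketone body genes had 4 measured members and 1 call, 25% of the list and close to the 25.4% of all genes. That call was a rise of OXCT1 by 0.26 ± 0.064 (limma adjusted p 0.0285), and it ended without any 1 of 4 arrays. OXCT1 rose by 0.42 with shRNA#4 (limma adjusted p 0.00916). With shRNA#2 its difference of 0.11 was not called (limma adjusted p 0.402).

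The list of malonyl-CoA and fatty acid synthesis was the one with the most rises. Its carboxylases make the malonyl-CoA that inhibits CPT1A, while its synthase and elongases use it. Of the list's 22 measured genes 7 rose and 4 fell, or 50%, against 25.4% of all genes, with a median of 0.049. ELOVL5, an elongase of polyunsaturated fatty acids, stood at -1.26 and -1.24 with scramble, at 0.28 and 0.12 with shRNA#2 and at -0.0061 and 0.0061 with shRNA#4. ELOVL5 rose by 1.35 ± 0.056 (limma adjusted p 0.000179), with all 4 hairpin arrays above scramble. The elongase ELOVL6 rose by 1.01 ± 0.10, ACACA, the cytosolic acetyl-CoA carboxylase, by 0.85 ± 0.069, and the synthase FASN by 0.69 ± 0.057 (limma adjusted p 0.00145, 0.000691 and 0.000772). ACACB, the carboxylase form at the mitochondrial surface, fell by 0.29 ± 0.043 (limma adjusted p 0.00493). MLYCD, which breaks down malonyl-CoA, fell by 0.38 ± 0.045 (limma adjusted p 0.00228). The elongases ELOVL1 (-0.48 ± 0.093) and ELOVL7 (-0.22 ± 0.058) were the other falls (limma adjusted p 0.0124 and 0.0409), and without replicate 2 of scramble neither was called (0.0644 and 0.191).

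Triglyceride synthesis and lipid droplet genes, the other destination of activated fatty acids, had 27 measured members, of which 13 fell and 2 rose. This was 55.6% of the list, against 25.4% of all genes, with a median of -0.26. DGAT1, which makes the final bond of triglyceride, stood at 0.97 and 1.16 with scramble, at -0.14 and 0.14 with shRNA#2 and at -0.78 and -0.34 with shRNA#4. DGAT1 fell by 1.35 ± 0.14 (limma adjusted p 0.00155), and its hairpin arrays all lay below scramble. The largest change of the list was in SOAT2, the cholesterol acyltransferase of enterocytes, which fell by 2.02 ± 0.14 (limma adjusted p 0.000491). The lipid droplet protein gene CIDEC fell by 1.64 ± 0.17 (limma adjusted p 0.00136). The acyltransferase gene MOGAT3 fell by 1.496 ± 0.13 (limma adjusted p 0.000839). The rises were SOAT1, the widely expressed cholesterol acyltransferase, by 0.34 ± 0.041 (limma adjusted p 0.00219), and PNPLA3 by 0.30 ± 0.085 (limma adjusted p 0.0461), and the second call ended without any 1 of 4 arrays, reaching 0.252 without replicate 1 of scramble.

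**Figure D4:**
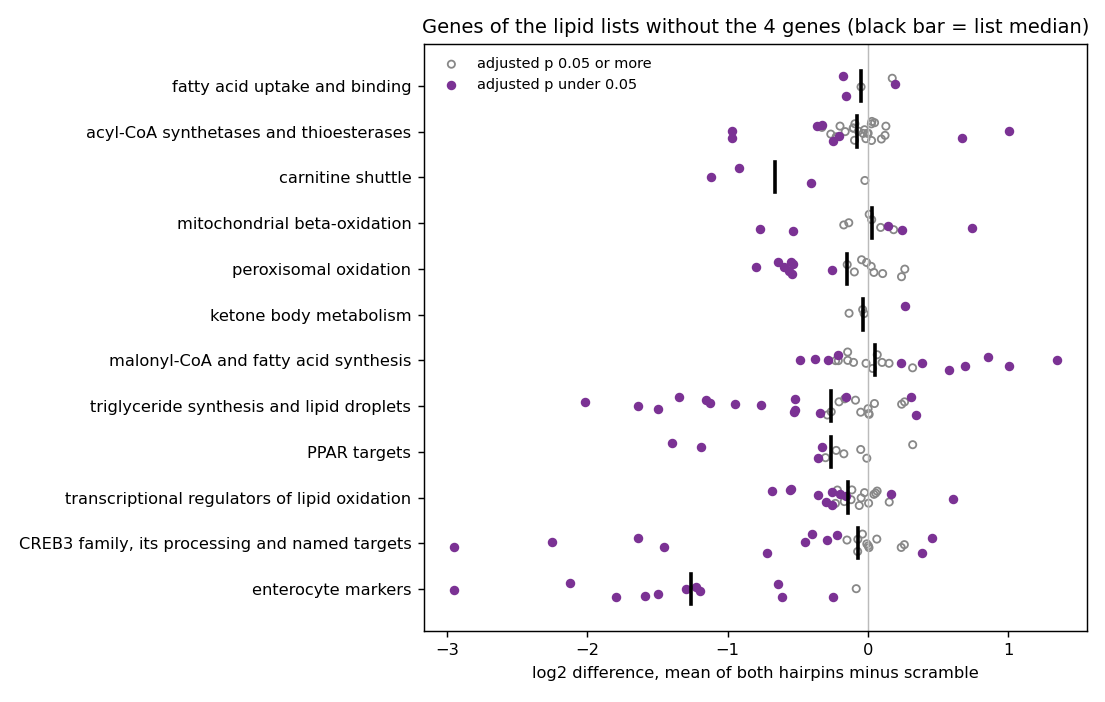
Log2 difference, mean of both hairpins minus scramble (x axis), for each measured gene (points) of the lipid lists and of the enterocyte marker list (y axis), without the 4 genes; filled points passed limma at an adjusted p under 0.05 and black bars are list medians. The carnitine shuttle and enterocyte lists lie mostly to the left, and fatty acid synthesis holds 7 filled points to the right.

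Among 24 measured regulators of lipid oxidation 9 fell and 2 rose, or 45.8%, against 25.4% of all genes, with a median of -0.14. PPARA, the nuclear receptor that drives fatty acid oxidation genes and acts with CREB3L3, stood at 0.40 and 0.52 with scramble, at 0.045 and -0.045 with shRNA#2 and at -0.091 and -0.28 with shRNA#4. PPARA fell by 0.55 ± 0.071 (limma adjusted p 0.00289). MLXIPL, the carbohydrate response factor ChREBP, fell by 0.68 ± 0.11 and the intestinal factor GATA4 by 0.56 ± 0.051 (limma adjusted p 0.00581 and 0.000974), while FOXA2 rose by 0.60 ± 0.065 (limma adjusted p 0.00158). The other rise was SIRT1, a deacetylase, by 0.16 ± 0.043 (limma adjusted p 0.0392), a call that ended without any 1 of the 6 arrays, reaching 0.152 without replicate 2 of scramble. PPARG fell by 0.36 ± 0.085 (limma adjusted p 0.0271), a call that ended without any 1 of 4 arrays, with a value of up to 0.115 without replicate 2 of scramble. PPARG differed from scramble by -0.11 with shRNA#2, which was not called (limma adjusted p 0.542). With shRNA#4 it fell by 0.60 (limma adjusted p 0.0069), so the mean describes neither hairpin. The list's calls went from 11 to 7 without replicate 1 of scramble, and to 6 without replicate 2 of scramble or either shRNA#2 array.

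Of 10 further PPAR targets 4 fell and 0 rose, or 40%, against 25.4% of all genes. AQP3, a water and glycerol channel, fell by 1.40 ± 0.063 and TXNIP, a glucose-responsive thioredoxin inhibitor, by 1.19 ± 0.17 (limma adjusted p 0.000179 and 0.00384). VNN1 (-0.36 ± 0.097, limma adjusted p 0.0414) and ACOT1 (-0.33 ± 0.063, limma adjusted p 0.0124) were the other calls. The call of VNN1 ended without any 1 of 5 arrays, reaching 0.142 without replicate 1 of scramble, and that of ACOT1 without replicate 2 of scramble (0.0704). In the list of CREB3 factors, their processing proteases and known targets, 9 of 21 measured members fell, 2 rose and 10 were not called. The share called was 52.4%, against 25.4% of all genes, and the list median was -0.074. The targets APOA4 and APOC3, apolipoproteins of triglyceride-rich particles, changed the most. APOA4 fell by 2.95 ± 0.096 (limma adjusted p 0.000166), with -2.98 for shRNA#2 and -2.92 for shRNA#4. APOC3 fell by 2.25 ± 0.095 (limma adjusted p 0.000179), with -2.13 and -2.37. The target APOA1, the main apolipoprotein of HDL, fell by 1.46 ± 0.045 (limma adjusted p 0.000166), more with shRNA#2 (-1.68) than with shRNA#4 (-1.23), a difference with a limma adjusted p of 0.00492. The target FADS1, a desaturase, went the other way and rose by 0.38 ± 0.046 (limma adjusted p 0.0023). Of 5 measured genes of fatty acid uptake and binding 3 were called, or 60%, against 25.4% of all genes. ACBD3 was higher, at 0.20, and ACBD5 and MFSD2A were lower, at -0.18 and -0.16 (limma adjusted p 0.017, 0.0456 and 0.0405). Without either scramble array, or without replicate 2 of shRNA#2, none of these 5 was called.

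Markers of the absorptive enterocyte were lower with the hairpins, as were CPT1A, ACSL5 and CREB3L3, while ACSL1 was higher. Of 12 measured markers 11 fell and 0 rose, with a median of -1.27. APOA4 (-2.95), the lactase LCT (-2.13), the microvillus protocadherin CDHR5 (-1.79) and the lipid transfer protein MTTP (-1.59) changed the most, with limma adjusted p-values of 0.000166 to 0.000179. The summed log2 values of the enterocyte markers ran from 13.4 to 13.5 on the scramble arrays, from -2.52 to -2.32 with shRNA#2 and from -1.47 to -0.97 with shRNA#4. Of 11 markers of epithelial identity 6 fell, with sums of 2.76 to 2.93, -1.03 to -0.31 and -0.64 to 0.73, and without replicate 2 of scramble 2 of these calls were left. KRT20, a keratin of differentiated colon epithelium, led with a fall of 1.19 ± 0.21 (limma adjusted p 0.00848), followed by GPA33 (-0.98) and the claudins CLDN7 (-0.51) and CLDN3 (-0.33), and without replicate 2 of scramble GPA33 and CLDN3 were not called (limma adjusted p 0.0623 and 0.119). Of 6 mesenchymal markers 3 rose and 1 fell, with sums of -0.48 to -0.23, -0.21 to 0.40 and 1.25 to 1.28 in the same order, and with 1 call left without replicate 1 of scramble and 2 without replicate 2. The called markers were TAGLN (0.44), FN1 (0.30), VIM (0.28) and THY1 (-0.20), and TAGLN stood at -0.23 with shRNA#2 and at 1.11 with shRNA#4. Of 6 genes of the immune and endothelial marker list CD68 and LYZ fell by 2.01 and 1.16, with sums of 2.19 to 2.94, -0.54 to -0.12 and -0.56 to -0.10. All cultures were of 1 carcinoma line, so these 2 genes are not read as immune cells here. The shares called were 91.7% of enterocyte, 54.5% of epithelial, 66.7% of mesenchymal and 33.3% of immune and endothelial markers. Over all genes the share was 25.4%. The part of these markers in the differences of the 4 genes was not tested. Centred values hold no level, so the presence or absence of a marker was not analysed here. Fewer cells with enterocyte features and less RNA per cell cannot be told apart.

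The protein-coding genes next to the 4 on their chromosomes were looked at where they were measured. MRPL21, beside CPT1A, rose by 0.46 ± 0.084 (limma adjusted p 0.00977) where CPT1A was lower, a call that ended without replicate 2 of scramble (0.0604). CENPU, beside ACSL1, rose by 0.42 ± 0.057 (limma adjusted p 0.0037). TECTB, beside ACSL5, fell by 0.19 ± 0.042 (limma adjusted p 0.019), a call that ended without any 1 of 4 arrays, reaching 0.0938 without replicate 1 of scramble. MAP2K2 (-0.16 ± 0.11) and SIRT6 (-0.016 ± 0.062), on either side of CREB3L3, were not called, with limma adjusted p-values of 0.387 and 0.911.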

How the data were processed

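RNA of 6 Caco-2 samples in 3 groups was labelled from 100 ng with the WT PLUS kit and hybridised to 1 Affymetrix array each, per the labels' protocols. The values the authors deposited were taken as log2, and the values themselves show that they were centred on each probe set's median across arrays. How probes were summarised and arrays normalized, and the logarithm's base, are not given in the sources used.

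Of 48144 probe sets, 16098 were named through Entrez IDs and RefSeq, and probe sets of a gene were averaged to 14884 genes. Groups, from the sample titles, were compared with limma 3.58.1 (R 4.3.3): 1 fit of all arrays, eBayes, and Benjamini-Hochberg adjustment over all genes, called under 0.05. The fit was tested on simulated data. The number of arrays limits the precision. The members and lists were chosen with earlier results of these data known. From each list up to 4 called genes per direction with the largest changes were named, with family paralogs, chromosome neighbours and the 5 genes of nearest pattern. Alternatives were quantile normalization, array medians set to 0, a robust prior, a replicate block, only the arrays compared, single probe sets, a threshold of 0.01 and omission of each array.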

Additional observations from a re-analysis of the deposited data

Results flagged for a closer look

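For 24 of 84 genes, which are the 4 genes, their paralogs, other acyl-CoA synthetases and the leading genes of each list, the effect of shRNA#2 and that of shRNA#4 differed in the direct comparison of the hairpins (limma, Benjamini-Hochberg adjusted p under 0.05); values are log2 differences, shRNA#2 minus shRNA#4, and the count over all genes is 2272 of 14884. The 20 genes of nearest pattern are not among the 84, since likeness to the 4 genes on the same arrays chose them, and 10 of them were called in this comparison. Outlying arrays were not tested for in groups of 2.

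Of the 4 genes, ACSL1 gave -0.78 and CPT1A -0.70. Of the paralogs, ACSL4 gave -1.01, CREB3 -0.47, CREB3L1 0.51 and the acetoacetyl-CoA synthetase AACS 0.28. The widest difference was that of BAAT at -1.85, followed by TAGLN at -1.34. BAAT lay above scramble with shRNA#4 and overlapped scramble with shRNA#2. On the beta-oxidation, peroxisomal and ketone body lists ETFDH gave 0.66, HADH 0.34, HIBCH 0.30 and ECI2 0.22, while HSD17B10 gave -0.55, PEX19 -0.35 and OXCT1 -0.31. Among synthesis, storage and transport genes SOAT1 gave 0.38, FADS1 0.22, ACACB 0.22, MTTP 0.65, APOA1 -0.45 and MFSD2A -0.20. The regulators PPARG and GATA4 gave 0.49 and 0.30, and the mesenchymal marker VIM gave -0.28. The calls of ACSL1, ACSL4, BAAT, ETFDH, SOAT1, APOA1, MTTP and TAGLN held whichever array was left out, and each of the others ended without at least 3 of the arrays.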

How the results depend on the processing

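The differences of the 4 genes from scramble kept their sign in every alternative run. Quantile normalization brought CREB3L3 to -1.06 and ACSL5 to -0.86, and the cause was not tested. Leaving out each array gave ranges of -1.53 to -1.34 for CREB3L3, -1.21 to -1.06 for ACSL5, -1.23 to -1.03 for CPT1A and 1.08 to 1.23 for ACSL1. Between the hairpins, ACSL1 ranged from -0.94 to -0.62 and CPT1A from -0.91 to -0.49 in that way. CPT1A (-0.70) was not called at an adjusted p under 0.01, nor with only the arrays compared (limma adjusted p 0.0551); with fewer arrays the fit has fewer degrees of freedom. The uncalled differences of ACSL5 (-0.19 to 0.10) and CREB3L3 (-0.13 to 0.16) changed sign when some arrays were left out, and CREB3L3 (-0.010) also did with quantile normalization.

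Leaving out each array moved the count of called genes to 2477 to 3358 for both hairpins together against scramble (3784 with all arrays), 1756 to 2982 for shRNA#2 (3220), 2677 to 3476 for shRNA#4 (3884) and 761 to 2166 between the hairpins (2272). Without replicate 1 of scramble they were 2477 and 2038 for the mean and for shRNA#2. The list genes called ranged from 75 to 84 (97). At an adjusted p under 0.01 the counts were 2158, 1575, 2122 and 769, and 64 for the lists.

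The replicate numbers of the titles give only 2 sets, and nothing says that a number marks a shared culture or day. The differences between replicates 1 and 2 correlated at 0.12 to 0.20 across genes between groups. With the replicate block 4160, 3598, 4227 and 2637 genes were called, and ACSL1 and CPT1A differed between the hairpins with limma adjusted p-values of 0.00709 and 0.004. With the block the named rises of ECI2, PNPLA3 and SIRT1 were no longer called. Depth is not given for arrays, and signal over background was not analysed here.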
